A study of Mus musculus with 24 samples.

Results

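Ngfr and Pdgfra encode cell-surface receptors that mark progenitors in the neural crest, glial and mesenchymal lineages. Both were taken by exact symbol from every table of differentially expressed genes of a series on P19 cells, a mouse embryonal carcinoma line, and they are 2 of the 1753 genes listed in at least 1 of the 23 tables. They were chosen by the log2 fold changes they have in these tables, so their values are given as a description and carry no test. The series asks which cell types P19 cells form when retinoic acid receptors are activated singly or together, and how this changes when 1 receptor is lost. All cells were P19, either wild type (WT) or lines in which Rara, Rarb or Rarg was disrupted by CRISPR/Cas9 (Rara-/-, Rarb-/- and Rarg-/-). The sources used here do not say whether a line is 1 clone.

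WT cells were sampled at days 2, 4 and 10 with all-trans retinoic acid (ATRA, which activates all 3 receptors, 1 μM), with BMS753 (RARα agonist, 1 μM), with BMS641 (RARβ agonist, 0.1 μM) plus BMS961 (RARγ agonist, 0.1 μM), or with ethanol (EtOH), the vehicle, and at day 10 also with BMS961 alone. Mutant lines were sampled at day 10 only. Rara-/- cells received ATRA, BMS961 or the combination of BMS641 and BMS961. Rarb-/- cells received these 3 treatments or BMS753, and Rarg-/- cells received ATRA, BMS753, BMS641 or the combination. Ligand was present for 4 d, and day 10 cells then spent 6 d in Neurobasal medium.

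Each of the 24 conditions has 1 library, and each table compares 1 of them with the same library of WT cells after 2 d of EtOH. A table gives the log2 fold change of the listed genes and an unadjusted p-value, which is under 0.01 for every listed gene. The tables hold 57 to 546 genes each. They hold no levels, so the identity of the cells could not be checked against markers that all P19 cells share, and the depth is unknown. Rara, Rarb and Rarg are in 0 tables, so the deletions could not be checked here either. The study itself measured each receptor in these lines by RT-qPCR early in ATRA treatment. The mutant lines have no EtOH library among those used here, and in them the effect of the line and that of the ligand cannot be told apart. Fewer expressing cells and less RNA per cell cannot be told apart in bulk RNA.

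Ngfr encodes p75NTR, a receptor that binds all neurotrophins with low affinity, works together with the Trk receptors or sortilin, and signals through a death domain. It marks migrating neural crest cells and Schwann cell precursors, and later cholinergic and sensory neurons. Pdgfra encodes a receptor tyrosine kinase that binds platelet-derived growth factors, drives proliferation and migration of mesenchymal cells, and is the standard surface marker of oligodendrocyte precursor cells (OPC). Retinoic acid receptors are ligand-dependent transcription factors that bind DNA as heterodimers with retinoid X receptors, often at direct repeats of a short half-site. Of the marker collections used by the study, Ngfr stands in that for neurons, and Pdgfra in those for neurons, OPC and GABAergic neurons.

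In the mm9 annotation, Ngfr (ENSMUSG00000000120.6) lies on the minus strand of chromosome 11 from 95430132 to 95449049 and has 6 exons. Pdgfra (ENSMUSG00000029231.9) lies on the plus strand of chromosome 5 from 75548316 to 75594229, and its longest coding transcript has 23 exons. Neither gene overlaps another annotated gene. The promoter windows of RefSeq, on build GRCm38.p6 and not mm9, are printed because both genes are listed in many of the same tables and their start regions differ in base composition. Each runs 5′ to 3′ from 250 bases before to 50 bases after the gene's start, at chr11:95587649-95587948 on the minus strand for Ngfr and at chr5:75152001-75152300 on the plus strand for Pdgfra. CpG dinucleotides are in capitals.
Ngfr promoter: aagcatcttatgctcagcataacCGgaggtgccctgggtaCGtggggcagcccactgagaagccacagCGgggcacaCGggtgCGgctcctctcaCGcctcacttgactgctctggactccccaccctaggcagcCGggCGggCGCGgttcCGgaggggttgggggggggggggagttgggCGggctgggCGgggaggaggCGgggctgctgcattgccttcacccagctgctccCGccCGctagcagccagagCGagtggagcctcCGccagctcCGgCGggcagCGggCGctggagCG
Pdgfra promoter: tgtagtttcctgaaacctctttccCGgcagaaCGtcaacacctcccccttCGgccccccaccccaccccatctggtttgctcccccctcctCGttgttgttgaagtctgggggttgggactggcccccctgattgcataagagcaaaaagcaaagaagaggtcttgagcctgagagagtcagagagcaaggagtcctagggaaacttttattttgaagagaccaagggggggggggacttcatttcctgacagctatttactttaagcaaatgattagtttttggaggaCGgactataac

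The Ngfr window is dense in CpG, with 23 of them and a GC content of 71.7%. The Pdgfra window holds 5 CpG at a GC content of 51%. Over all 32851 promoter windows of the same length, the median was 7 CpG and 52.7% GC. Ngfr had more CpG than 78.5% of all windows, and Pdgfra more than 38.0%. The letters GGGCGG, the Sp1 box, were found 4 times in the Ngfr window and 0 times in that of Pdgfra, searching both strands, and 35.7% of all windows hold them. The retinoic acid receptor half-sites AGGTCA and AGTTCA were in neither window, against 16.3% and 14.0% of all windows. Their direct repeats spaced by 1, 2 or 5 bases and the TATA box TATAAA were in neither window too, and 13.6% of all windows hold the last. These matches concern the letters in 300 bases only.

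Ngfr was listed in 11 of the 23 tables, with a log2 fold change over 2 in each. It was listed in 0 of the 3 tables of day 2, 2 of the 4 of day 4, and 9 of the 16 of day 10. Its log2 fold changes ran from 7.36 to 10.61 with a median of 8.73, and none was negative. Pdgfra was listed in 15 tables, all with a log2 fold change over 2. These were 1 table of day 2, 1 of day 4 and 13 of day 10. Its log2 fold changes ran from 6.97 to 13.09 with a median of 8.10, again with none negative. As background, the share of the 1753 genes with a log2 fold change over 2 ran from 1.65% in EtOH at day 4 to 22.5% with ATRA at day 10.

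**Figure D1:**
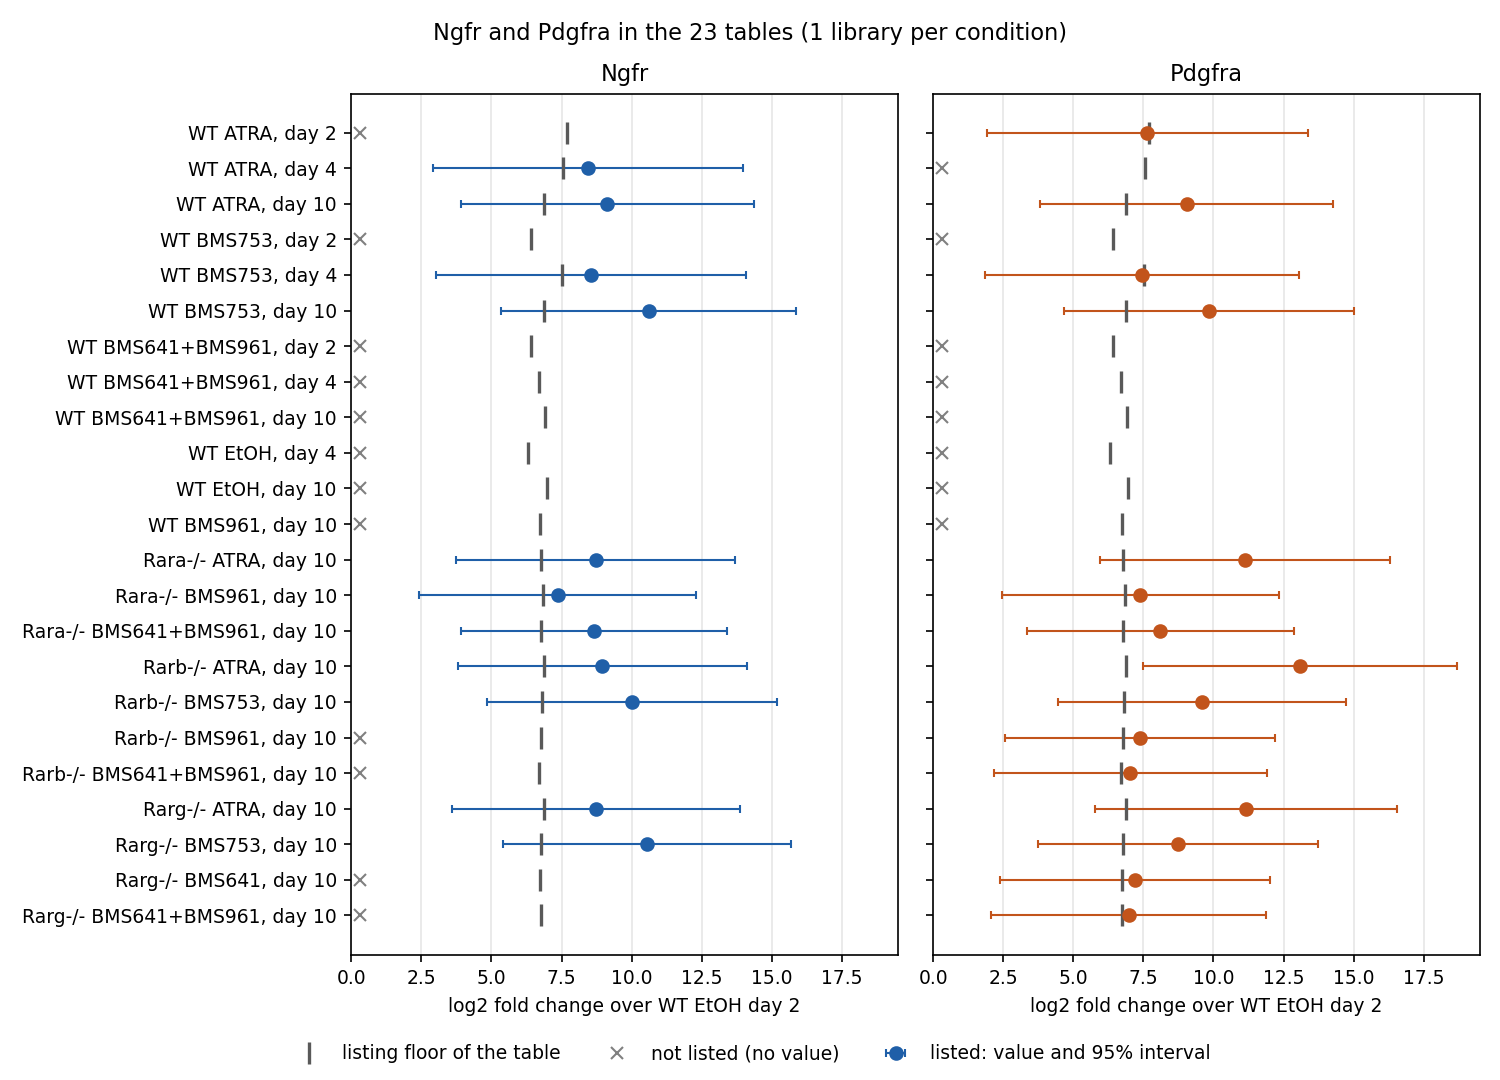
Deposited log2 fold change of Ngfr (left) and Pdgfra (right) over WT EtOH at day 2 in each of the 23 tables, 1 library per condition. Points are values, bars are 95% intervals from the standard error that the value and its p-value imply, crosses mark tables in which the gene is not listed, and short vertical lines mark the listing floor of each table. Ngfr has 11 values from 7.36 to 10.61 and Pdgfra 15 values from 6.97 to 13.09, and every interval of a gene overlaps its others.

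In WT cells with ATRA, Ngfr was not listed at day 2 and had a log2 fold change of 8.44 at day 4 (deposited unadjusted p = 0.00281) and 9.13 at day 10 (deposited unadjusted p = 0.000608). With BMS753 it was likewise not listed at day 2, and its log2 fold change was 8.55 at day 4 and 10.61 at day 10. The last value was the fifth largest of the 383 up-regulated genes of that table (deposited unadjusted p = 7.69e-05). Ngfr was not listed with the combination of BMS641 and BMS961 at any day, with BMS961 at day 10, or in EtOH. Among WT tables Ngfr was therefore listed under ATRA and BMS753 only, at days 4 and 10. A gene that is not listed has no value, so this does not date its rise. The background of genes up-regulated was 5.65%, 10.2% and 22.5% for ATRA at days 2, 4 and 10, and 6.39%, 8.33% and 21.8% for BMS753. It was 3.71%, 2.22% and 9.87% for the combination, 8.16% for BMS961, and 1.65% and 9.53% for EtOH at days 4 and 10.

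Pdgfra in WT cells with ATRA had a log2 fold change of 7.64 at day 2 (deposited unadjusted p = 0.00896), was not listed at day 4, and reached 9.04 at day 10. With BMS753 it was not listed at day 2 and had a log2 fold change of 7.45 at day 4 (deposited unadjusted p = 0.00925) and 9.85 at day 10 (deposited unadjusted p = 0.000195). Like Ngfr, it was not listed with the combination, with BMS961 or in EtOH. The 2 early values lie at the edge of what these tables can list. A listing floor was computed for each table as the largest log2 fold change among up-regulated genes with a p-value of 0.008 or more, a limit set after the values were seen. The distance of Pdgfra from this floor was -0.048 with ATRA at day 2 and -0.068 with BMS753 at day 4, when the floors were 7.69 and 7.52. The gap at day 4 of ATRA, where the floor was 7.57, is thus no measured fall. For Ngfr, the floor of 7.69 with ATRA at day 2 exceeds its lowest listed value in any table, 7.36. With BMS753 at day 2 the floor was 6.41.

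In Rara-/- cells, Ngfr was listed under all 3 treatments, with log2 fold changes of 8.71 for ATRA, 7.36 for BMS961 and 8.65 for the combination. Pdgfra had values of 11.13, 7.39 and 8.10 in the same order. Neither gene was listed in WT cells with BMS961 or with the combination, where the floors were 6.73 and 6.91. With the combination, the Rara-/- values lie 1.74 above the WT floor for Ngfr and 1.19 above it for Pdgfra, on the log2 scale. With BMS961 the distances were 0.64 and 0.66. A gene that is not listed has no value, so the difference itself was not tested. The background was 19% for ATRA, 10.9% for BMS961 and 16.8% for the combination.

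In Rarb-/- cells, the log2 fold change of Ngfr was 8.95 with ATRA and 10.01 with BMS753, and Ngfr was not listed with BMS961 or the combination. Pdgfra had a log2 fold change of 13.09 with ATRA (deposited unadjusted p = 4.5e-06), the largest of the 359 up-regulated genes of that table, in which the next gene had 12.39. The other values of Pdgfra were 9.59 with BMS753, 7.37 with BMS961 and 7.03 with the combination. Up-regulated genes made up 20.5%, 22.3%, 7.02% and 8.27% of the 1753 under these 4 treatments.

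In Rarg-/- cells, Ngfr had log2 fold changes of 8.73 with ATRA and 10.56 with BMS753, the third largest of 348 up-regulated genes, and was not listed with BMS641 or the combination. Pdgfra was listed under all 4 treatments, with 11.17 for ATRA, 8.73 for BMS753, 7.21 for BMS641 and 6.97 for the combination. The background was 21.4%, 19.9%, 8.5% and 8.61% in that order. Pdgfra was thus listed in all 11 tables of mutant lines, which are all of day 10 with ligand, and in 2 of the 5 WT tables of day 10, of which 1 is EtOH. Ngfr was listed in 7 of the 11 and in 2 of the 5. The 4 Pdgfra values of Rarb-/- and Rarg-/- cells without ATRA or BMS753 lie between 0.22 and 0.59 above their floors. Of these, the value of Rarb-/- cells with BMS961 lies 0.64 above the floor of the WT table with the same ligand, and those of Rarb-/- and Rarg-/- cells with the combination lie 0.12 and 0.064 above the floor of theirs. A gene can be listed below a floor, as Pdgfra was, so a floor is no strict limit.

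Across all tables, both genes were listed in 10, only Ngfr in 1, only Pdgfra in 5 and neither in 7. In the 7 tables of day 10 with ATRA or BMS753, whatever the line, both were listed in every one. Ngfr ran from 8.71 to 10.61 in these and Pdgfra from 8.73 to 13.09. In the 9 other tables of day 10, Ngfr was listed in 2, at 7.36 and 8.65, and Pdgfra in 6, from 6.97 to 8.10. When only values with a deposited p-value under 0.001 are kept, both genes are in 8 tables, these 7 and Rara-/- cells with the combination.

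The errors of these values are large. The standard error that a log2 fold change and its p-value imply was computed, since only WT ATRA at day 2 has a deposited one, which it matched over 144 genes to a relative difference of at most 4.27e-08. The half-width of the 95% interval was 4.73 to 5.54 on the log2 scale for Ngfr and 4.76 to 5.73 for Pdgfra. The highest lower bound of any interval was 7.50 and the lowest upper bound 11.89, so all 26 intervals of both genes share a common range. This overlap is a description and no test of a difference between tables, since every interval holds the error of the same reference library, which would cancel in part in a difference. No order of the values above was tested, and the intervals cover the error of the authors' model on single libraries and not the spread between cultures.

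Both genes stand among those with the largest errors. The standard error of Ngfr exceeded that of 71.9% to 99.1% of the up-regulated genes of its tables, and that of Pdgfra exceeded 74.0% to 99.7%. Standard errors fall on separate curves against the log2 fold change, visible in the plot of error against size. A member was counted on the uppermost curve when no gene within 0.1 of its log2 fold change had an error larger by more than 0.02, and this held for 26 of 26 values, against 76.3% of all 2105 values above the floors. Only 24 of the 26 had another gene within the window, and a value without one is counted by default. This window and tolerance were set after the members' values were seen, to follow the slope of the curve. The setting tried first, 0.25 and 0.01, counted 15 of 26 values and 41.8% of all, so the count depends on the setting and nothing is drawn from it. In 5 of the 26 values a different gene had the same log2 fold change and p-value, as Actl6b did with Pdgfra in Rara-/- cells with the combination. A gene with few or no reads in the reference library would have such an error, but counts are not used here and this was not tested. The log2 fold changes are for this reason not converted to folds.

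**Figure D2:**
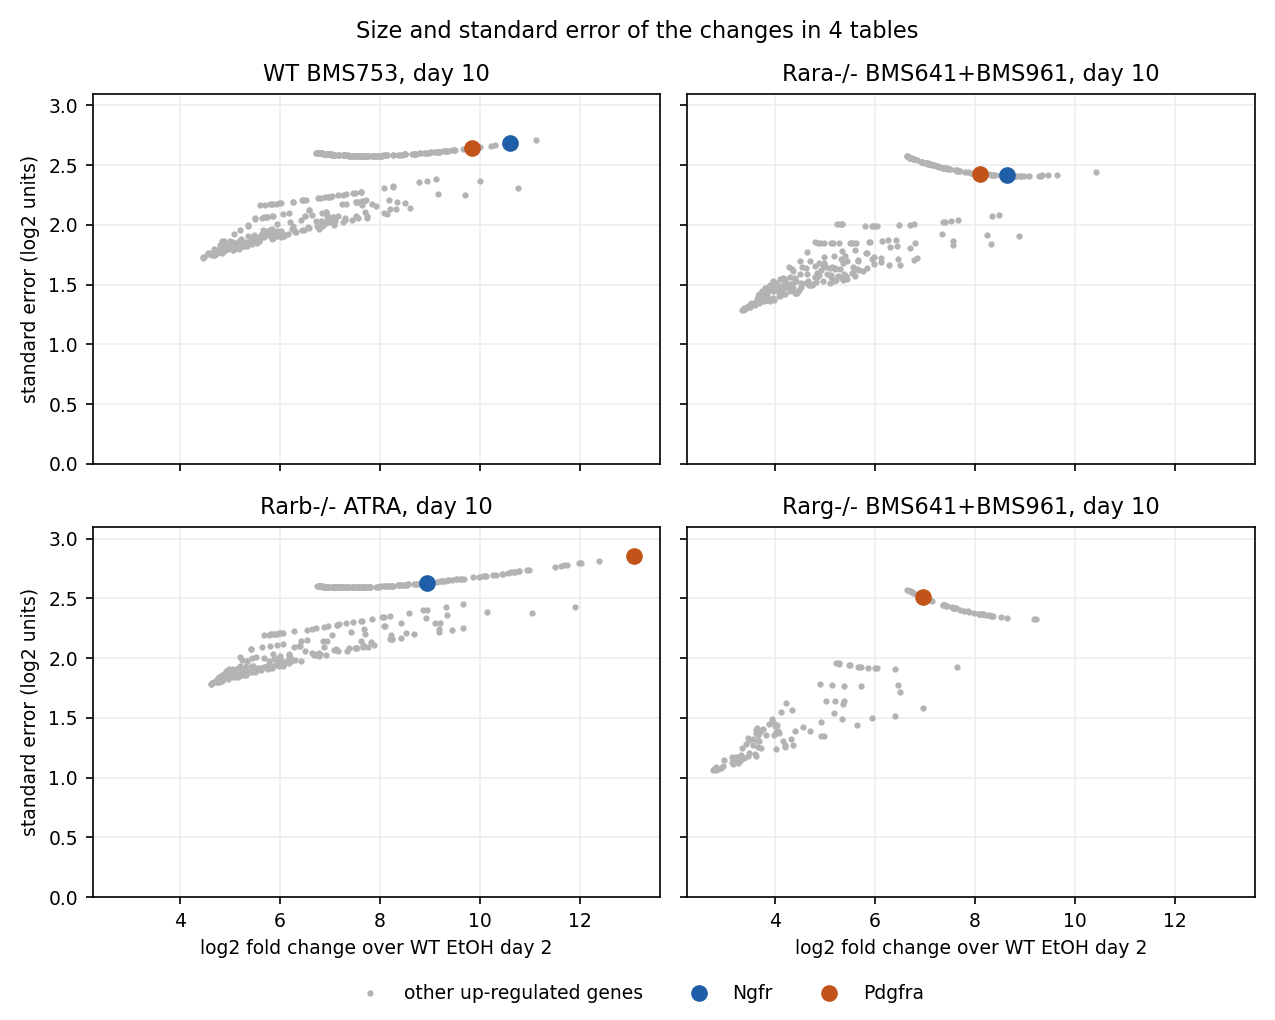
Standard error against log2 fold change over WT EtOH at day 2 for the up-regulated genes of 4 day 10 tables, both in log2 units, 1 library each. Grey points are other genes and coloured points Ngfr and Pdgfra. In Rarb-/- cells with ATRA, Pdgfra is the rightmost point at 13.09, with no other gene close to it in size.

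ATRA and BMS753 were both given at 1 μM in WT, Rarb-/- and Rarg-/- cells, which allows the day 10 values to be set side by side. For Ngfr, the value with BMS753 exceeded that with ATRA by 1.48 in WT cells (95% interval -5.93 to 8.89), by 1.06 in Rarb-/- cells (-6.25 to 8.37) and by 1.83 in Rarg-/- cells (-5.45 to 9.10), on the log2 scale. For Pdgfra, BMS753 minus ATRA was 0.81 in WT cells (-6.54 to 8.16), -3.50 in Rarb-/- cells (-11.09 to 4.10) and -2.44 in Rarg-/- cells (-9.78 to 4.91). Every interval includes 0 and is too wide to show that the ligands act alike. These intervals treat the values as independent, although both hold the same reference library, so they may be too wide.

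**Figure D3:**
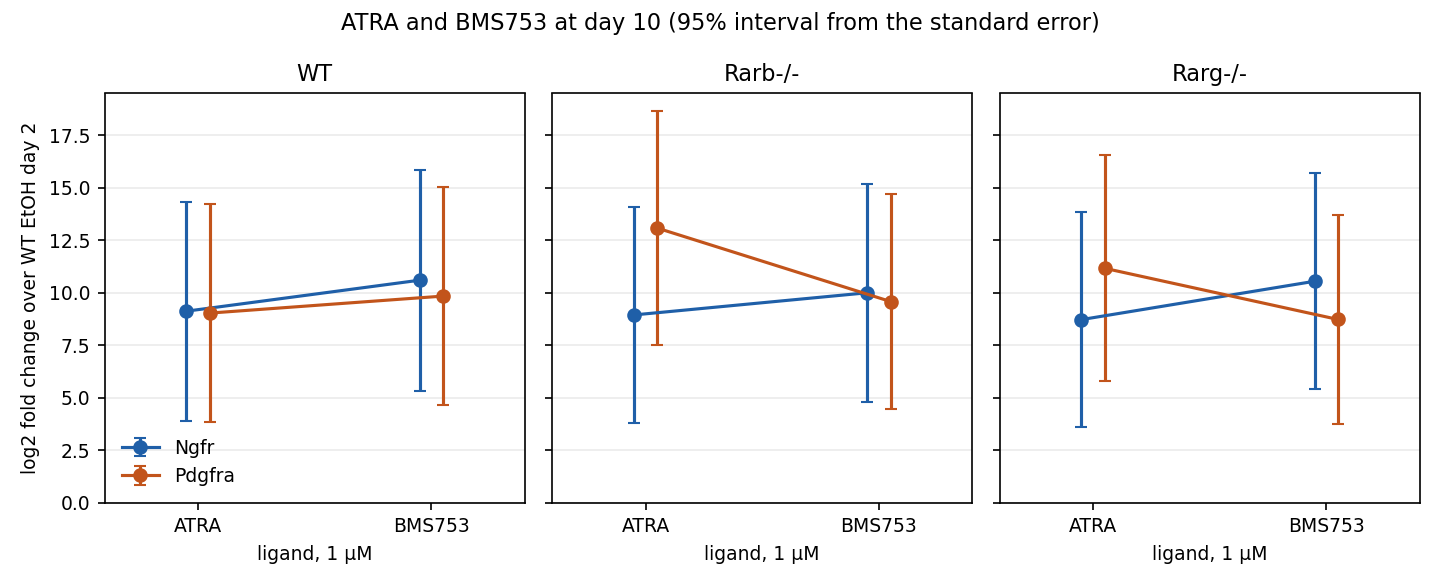
Deposited log2 fold change over WT EtOH at day 2 of Ngfr and Pdgfra at day 10 with ATRA or BMS753, each at 1 μM, in WT, Rarb-/- and Rarg-/- cells, 1 library per point. Bars are 95% intervals from the implied standard error, and lines join the values of 1 gene. Ngfr is higher with BMS753 in the 3 lines and Pdgfra is lower with BMS753 in the mutant lines, by differences whose intervals include 0.

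The background of this comparison is the set of genes up-regulated with both ligands in a line, 300 in WT, 166 in Rarb-/- and 253 in Rarg-/- cells. Their value with ATRA was the larger for 60% of genes in WT, 62.0% in Rarb-/- and 73.9% in Rarg-/- cells. The difference ATRA minus BMS753 of Pdgfra was larger than that of 13% of these genes in WT, 95.2% in Rarb-/- and 98.8% in Rarg-/- cells. For Ngfr it was larger than that of 3%, 17.5% and 3.16%.

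Set against WT cells with the same ligand, the mutant lines with ATRA had Ngfr values that differed by -0.42 in Rara-/-, -0.18 in Rarb-/- and -0.40 in Rarg-/- cells, on the log2 scale. Pdgfra was higher than in WT cells by 2.09, 4.05 and 2.13. The interval of Rarb-/- cells, where Pdgfra differed most, ran from -3.59 to 11.69, and those of the other lines include 0 as well. With BMS753, Pdgfra was below its WT value by a difference of -0.26 in Rarb-/- and -1.11 in Rarg-/- cells, and Ngfr by -0.60 and -0.05. In Rara-/- cells, the combination exceeded BMS961 alone by 1.29 for Ngfr (-5.55 to 8.13) and by 0.71 for Pdgfra (-6.15 to 7.57).

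The genes whose tables are most like those of Ngfr were found with the Jaccard index, the number of tables listing both genes as up-regulated divided by the number listing either. Hoxa3, a hindbrain patterning gene, Gas1, a Hedgehog coreceptor, and Unc5c, a netrin receptor, were up-regulated in the same 11 tables as Ngfr (index 1). Meis1, a cofactor of Hox proteins, and Hoxa2 had 12 tables and an index of 0.917. Log2 fold changes ran from 6.59 to 9.12 for Hoxa3 and from 4.95 to 5.89 for Unc5c. Meis1 came closest to Ngfr in size, with a mean absolute difference of 0.59 over the 11 shared tables.

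For Pdgfra the likeness was lower. Sema4f, a semaphorin, and Cgas, a cytosolic DNA sensor, shared 13 of its 15 tables (index 0.765). Bmp4, a bone morphogenetic protein, was listed in all 15 and in 5 more (0.75), Igfbp5, a binding protein of insulin-like growth factors, had an index of 0.737, and Plau, the urokinase, 0.722. Of these, Bmp4, Igfbp5, Sema4f and Plau were also up-regulated in EtOH at day 10. Ngfr and Pdgfra had an index of 0.625 with each other, which placed Pdgfra at rank 141 in the order for Ngfr and Ngfr at rank 35 in the order for Pdgfra. All indices use tables that share a reference library.

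**Figure D4:**
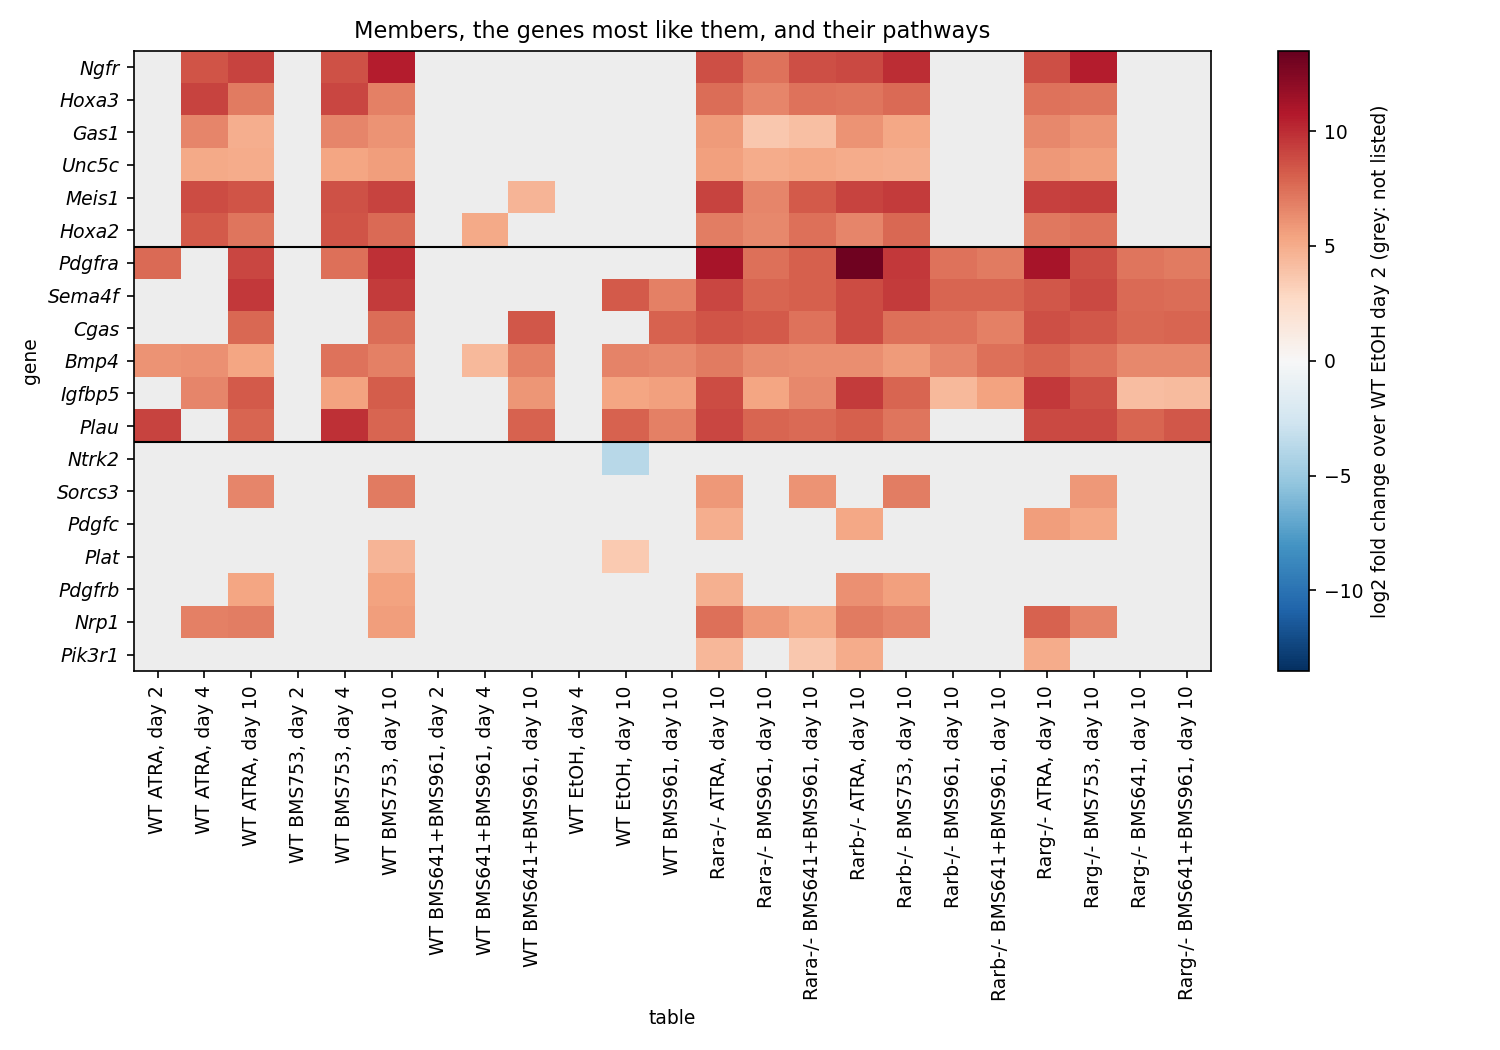
Deposited log2 fold change over WT EtOH at day 2 (colour, red for higher, blue for lower, grey for not listed) in each of the 23 tables (columns) of Ngfr and the 5 genes most like it, Pdgfra and the 5 most like it, and 7 other listed genes of the neurotrophin and PDGF pathways (rows). The first 4 rows, Ngfr, Hoxa3, Gas1 and Unc5c, are coloured in the same 11 columns, and Ntrk2 is the 1 gene in blue, in EtOH at day 10.

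Of 37 genes of the neurotrophin pathway, 4 were listed in any table, Ngfr among them. Sorcs3, a sortilin-related receptor, was up-regulated in 6 tables, from 5.80 to 6.96. Ntrk2, which encodes the receptor TrkB, fell by 3.75 on the log2 scale in EtOH at day 10 and was listed nowhere else. Bdnf, Ntf3, Ntrk3 and Sort1 were not listed, so most partners of p75NTR have no value here.

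Of 22 genes of the PDGF pathway, 6 were listed, all as up-regulated. Pdgfc, a ligand of PDGFRα, had log2 fold changes of 4.91 to 5.68 in 4 tables, the 3 mutant lines with ATRA and Rarg-/- cells with BMS753. Pdgfrb, the sister receptor, was up-regulated in 5 tables, from 4.78 to 6.13, all of day 10 with ATRA or BMS753. Nrp1, a coreceptor for several growth factors, was up-regulated in 10, from 5.15 to 7.93. Pik3r1, a subunit of phosphoinositide 3-kinase, was up-regulated in 4 tables (3.66 to 5.04), and Plat, the tissue plasminogen activator that cleaves PDGF-C, in 2, at 4.56 in WT cells with BMS753 and 3.51 in EtOH at day 10. The ligands Pdgfa, Pdgfb and Pdgfd were not listed.

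Markers of the cell types that carry these receptors were listed to different extents. The number of genes tested is not given here, so no share of all genes can be set beside these counts or those of the other lists. Of 18 OPC markers, 6 were listed, among them Vcan, a proteoglycan, in 10 tables, Lum in 7 and Matn4 in 5. The defining OPC markers Olig1, Olig2, Sox10 and Cspg4 were not listed, which gives them no value and does not show their absence. The study reports Olig2 RNA by RT-qPCR in WT cells with ATRA, BMS753 or the combination. Of 18 neural crest markers, 12 were listed. Sox9 was up-regulated in 16 tables, Pax3 in 15, Tfap2b in 14 and Ednrb and Twist1 in 10 each, while Foxd3, which pluripotent cells express too, was lower in 17. Sox9 and Tfap2b were also up-regulated in EtOH at day 10, at 4.95 and 6.00, where Pax3, Ednrb and Twist1 were not listed. Pdgfra is a marker of the primitive endoderm as well, and of 13 markers of that lineage 3 were listed, Gata6 in 7 tables, Foxa2 in 2 and Ttr in 1. Of 12 markers of cholinergic, sensory and motor neurons, 2 were listed, and Ret, a receptor tyrosine kinase, was lower in 3 tables.

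Of 20 mesenchymal markers, 18 were listed in some table. These 18 are the like base for the counts below, since the 1753 genes were each listed in at least 1 table. With ATRA at day 10, 11 were up-regulated in WT, 14 in Rara-/-, 14 in Rarb-/- and 13 in Rarg-/- cells, where 22.5%, 19%, 20.5% and 21.4% of the 1753 genes were. The number was 10 with BMS753 in WT cells, 9 in Rarb-/- and 10 in Rarg-/-, beside 21.8%, 22.3% and 19.9% of all genes. It was 1 with the combination in WT cells and 7 with it in Rara-/- cells, beside 9.87% and 16.8%. Col3a1, a fibrillar collagen, was up-regulated in 13 tables, Col1a2 and Osr1 in 11 each, and Thy1 was lower in 10. In Rarb-/- cells with ATRA, where Pdgfra was the largest value, the up-regulated mesenchymal markers had a median log2 fold change of 8.87, against 7.07 for all up-regulated genes of that table. With BMS753 in the same line the medians were 5.88 and 6.75.

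ATRA and BMS753 were compared over the mesenchymal markers up-regulated with both. The value with ATRA was the larger for 0 of 10 markers in WT cells, 9 of 9 in Rarb-/- and 9 of 10 in Rarg-/- cells, beside 60%, 62.0% and 73.9% of all genes. The median of ATRA minus BMS753 over these markers was -0.53, 2.39 and 1.19 on the log2 scale, and over all genes 0.21, 0.44 and 0.46. Pdgfra had -0.81, 3.50 and 2.44 in the same lines, and Ngfr -1.48, -1.06 and -1.83. Single markers such as Col3a1 had 2.39 in Rarb-/- and 2.13 in Rarg-/- cells. These markers share the libraries of Pdgfra, and their part in its values was not tested. For the neural crest list, ATRA gave the larger value for 4 of 6, 2 of 2 and 1 of 4 markers in the same lines. It did so for 2 of 4, 1 of 1 and 2 of 3 OPC markers, and for 5 of 5, 0 of 1 and 4 of 5 neuronal markers. In the PDGF pathway, Pdgfra included, it did so for 1 of 3, 3 of 3 and 3 of 3 genes. Neuronal markers up-regulated in single tables were counted too. Of 13, 8 were listed in any table. ATRA at day 10 gave 6 in WT, 2 in Rara-/-, 1 in Rarb-/- and 5 in Rarg-/- cells. The share of the 1753 genes was 22.5%, 19%, 20.5% and 21.4% in the same order. BMS753 gave 5 in WT, 7 in Rarb-/- and 5 in Rarg-/- cells, beside 21.8%, 22.3% and 19.9%. The 1753 genes were each listed in at least 1 table, so the like base for these counts is the 8 listed markers and not all 13. No difference between these counts was tested. Dcx and Gap43, which mark young neurons, were up-regulated in 10 tables each.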

How the data were processed

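RNA from P19 cells was sequenced from poly-T captured libraries, 24 in all, 1 per condition. The authors mapped reads to mm9 with Bowtie2 2.1.0, counted them per gene with featureCounts and ran DESeq2. They deposited 23 tables, each of 1 library against WT EtOH at day 2, giving for each listed gene its log2 fold change in that comparison with an unadjusted p-value. The table of WT ATRA at day 2 also holds a deposited standard error, treated as a score in log2 units. How the authors' model estimated the spread without replicates is not given in the sources used here. Counts and the number of genes tested are not used here.

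Genes with a log2 fold change over 2 were counted as up-regulated. The members and gene lists were chosen with earlier results of these data known, so all values are descriptive. Standard errors were computed from each value and its p-value, taking the test as two-sided and normal, and percentages of genes use the 1753 genes listed in any table as the denominator. No test between conditions was made. Named genes are the members, the 5 genes with the highest Jaccard index for each, with ties broken by the mean absolute difference of log2 fold changes, up to 4 genes of each list up-regulated in the most tables, and the listed ligands, receptors and coreceptors of both pathways. Other listed or absent genes (Pik3r1, Plat, Foxd3, Thy1, Ret, Actl6b, Sox21 and absent markers) were named after their values were seen, and some genes of the lists are not reported here. Gene positions are from the GENCODE annotation of mm9, and both members matched a RefSeq promoter window. The calculations were tested on simulated data, the error-curve call on denser tables than the real ones, and it can count isolated genes of a lower curve. They ran in Python 3.11.15, using scipy 1.17.1, numpy 2.4.6, pandas 2.3.3 and, for plots, matplotlib 3.10.9. Alternatives were other thresholds on the log2 fold change and p-value, other measures of likeness, day 10 tables alone, looser symbol matching, another limit for the listing floor and another window for the error curve.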

Additional observations from a re-analysis of the deposited data

How the results depend on the processing

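No paired analysis was possible because each condition has 1 library. The counts of tables listing Ngfr (11), Pdgfra (15) and both (10) could not change with log2 thresholds of 1 and 3, since the lowest value is 6.97. With p-values under 0.001 only, Pdgfra was counted in 8 tables, Ngfr in 8 and both in 8. Subtracting the EtOH value of the same day gave no value, since neither gene was listed in EtOH. Of the 5 genes most like each member, cosine similarity kept 4 for Ngfr and 2 for Pdgfra, and day 10 tables alone kept 0 and 2. The 0 comes from breaking ties, since 21 genes had an index of 1 with Ngfr over these tables, 4 of the 5 among them. Looser symbol matching added 1 gene to the OPC and neural crest lists, Sox21, which is an older name of Sox10 and also a gene of its own. With a p-value of 0.009 or more as the limit, chosen after seeing the data, the day 10 floors lay between 6.65 and 6.92. The count of values on the uppermost error curve, 26 of 26, was 15 with the setting tried first. The depth is unknown, so no limit from depth can be given.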
